A study of Bos taurus with 23 samples.

Results

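CLECL1 (C-type lectin-like 1, ENSBTAG00000039980) is 1 of the 50 genes by which the study set apart the endometrium of receptive (R) cows, where it was listed among the genes with higher expression (UP). The study chose that list on pooled data sets of several breeds, to which part of the cows analysed here contributed. It was followed here as a single gene, 1 of 24616 genes in the count files and 1 of 14852 genes with enough reads to be tested. The samples were endometrial biopsies of 23 Holstein cows, described by the study as lactating, taken between days 6 and 8 of the cycle, with 1 RNA sequencing library per cow. In the next cycle each cow received 1 in-vitro produced embryo, and after slaughter between days 26 and 47 there were 12 pregnant (R) and 11 non-pregnant (nonR) cows. All biopsies preceded the transfer, so the groups differ in a later outcome and not in a treatment. The R cows comprised 7 of parity 1, 2 of parity 2 and 3 of parity 3, and the nonR cows 5, 3 and 3. The interval from the last calving to the transfer was 128 to 274 days in R cows (median 173.5) and 130 to 261 days in nonR cows (median 180).

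C-type lectin-like proteins share the fold of sugar-binding lectins. Many of them are membrane proteins of white blood cells, and many bind protein partners on other cells. CLECL1 was described in humans on dendritic cells and B cells, where it acts as a costimulator of T cells and favours the production of interleukin 4. The endometrium of the cycling cow holds resident white blood cells beside luminal and glandular epithelium, stroma and vessels. In the RefSeq annotation of the bovine assembly ARS-UCD2.0, the coding genes nearest to CLECL1 include CD69, an early activation marker of lymphocytes, CLEC2D, and the natural killer cell receptors KLRF1 and KLRB1. Genes carry only Ensembl identifiers in the counts, and symbols were at hand for the 50 genes of the list, so these neighbours, and markers of immune, epithelial or stromal cells, were not analysed here. The biopsies are mixtures of cells, and a difference in the number of cells that express CLECL1 cannot be told apart from a difference in RNA per cell.

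CLECL1 was detected in the biopsy of every cow, at a low number of reads, and its level varied 4.95-fold between the lowest and the highest cow. Between 13 and 138 reads per library were assigned to it (median 67), out of 6920879 to 27357249 reads in genes. Its level as CPM (counts scaled to the size of the library) was 1.44 CPM in the lowest cow, 3.06 CPM at the median and 7.13 CPM in the highest cow, with a mean of 3.48 ± 1.53 CPM (SD, n = 23). The lowest cow was nonR replicate 19, with 27 reads, and the highest was R replicate 10, with 134 reads. The 95% Poisson intervals of these extremes, which cover counting error only, were 0.949 to 2.10 CPM and 5.98 to 8.45 CPM and did not overlap. Poisson counting error amounted to 8.82% of the variance of CPM over cows, and with 1 library per cow the rest cannot be divided between the animals, the biopsies and the preparation of the libraries. The biological coefficient of variation estimated by edgeR was 0.395 for CLECL1, and 32.9% of the 672 genes within 0.25 log2 units of its mean level had a lower one.

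Some libraries stood apart in these data, and all of them but 1 lay in the lower part of the CLECL1 range. In a principal component analysis of vst values (a log2-like scale with stabilised variance), the first component held 43.2% of the variance. On it nonR replicates 4 and 6 and R replicates 22 and 23 had scores of 49.7 to 97.8, and the other 19 libraries at most 9.75. These 4 libraries had CLECL1 at 2.15 to 2.43 CPM and took ranks 16 to 19 of 23, counted from the highest cow. Reads outside annotated genes made up 75.5% of the library in R replicate 20 and 76.7% in R replicate 21, and 39.2 to 59.6% in all others. They did not share a level of CLECL1, which was 4.79 CPM in replicate 20 (42 reads) and 1.73 CPM in replicate 21 (13 reads, the fewest of any library). The part of tissue composition or RNA quality in these values was not tested.

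In R cows CLECL1 was at 1.73 CPM in the lowest, 4.22 CPM at the median and 7.13 CPM in the highest cow. The corresponding values in nonR cows were 1.44, 2.82 and 4.70 CPM. The groups overlapped over most of their range. Of the 12 R cows, 8 lay above the nonR median and 5 above the highest nonR cow, and 2 nonR cows lay under the lowest R cow. The means were 4.15 ± 1.67 CPM (SD, n = 12) and 2.75 ± 0.964 CPM (SD, n = 11), a 1.51-fold difference. The log2 difference fitted by edgeR was 0.59 (standard error 0.24). The study chose CLECL1 for this contrast on part of these cows and on other cattle. The difference is therefore a description and carries no test. It was 0.56 with parity class and days from calving in the model. Without the 6 libraries named above it was 0.74. Leaving out single cows gave values between 0.50 (without R replicate 10) and 0.68 (without nonR replicate 14). As background to this contrast, edgeR's quasi-likelihood test called 0 of 14852 genes (0%) at an adjusted p of 0.05, 1556 genes (10.5%) had an unadjusted p under 0.05, and DESeq2 called 10 genes (0.0687% of those it tested).

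**Figure D1:**
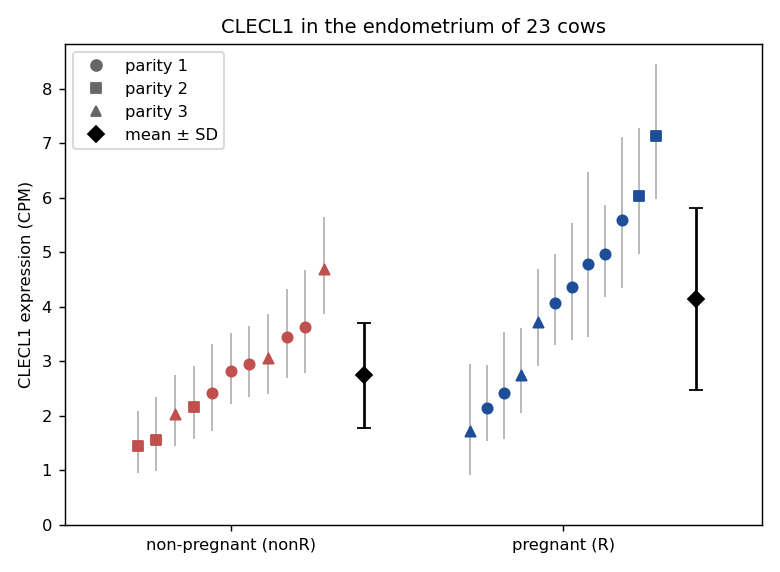
CLECL1 level (y axis, CPM) of each cow, sorted within 11 non-pregnant and 12 pregnant cows (x axis), with grey bars for the 95% Poisson interval of the read count, marker shape for parity and black diamonds for the mean ± SD of the group. The groups overlap from 1.73 to 4.70 CPM, and the 5 highest cows are pregnant.

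Parity, which played no part in the choice of the gene, showed no detectable relation to CLECL1 when cows of parity 1 were compared with older cows. The 12 cows of parity 1 had CLECL1 at 2.15, 3.54 and 5.60 CPM (lowest, median, highest), and the 11 cows of parity 2 or more had 1.44, 2.75 and 7.13 CPM. The older cows covered a wider range that enclosed the whole range of the first-parity cows. The log2 difference, older minus first-parity cows with pregnancy status in the model, was -0.09 (standard error 0.24, 95% interval -0.60 to 0.41). The quasi-likelihood test of edgeR gave an unadjusted p of 0.706 and an adjusted p of 0.987 over all genes. Without R replicates 20 and 21 the log2 difference was 0.0059. The lower end of the interval is of about the size of the difference between R and nonR cows. No gene passed this test (0 of 14852, 0%), 520 genes (3.5%) had an unadjusted p under 0.05, and DESeq2 called 0 genes (0%).

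Within the second parity the 2 R and 3 nonR cows did not overlap, whereas within parities 1 and 3 they did. So few cows can separate by chance, and the share of all genes that separate there was not counted. The 2 R cows of parity 2 had 6.04 CPM (replicate 15) and 7.13 CPM (replicate 10), the highest values of all cows. The 3 nonR cows of parity 2 had 1.44 CPM (replicate 19), 1.57 CPM (replicate 1) and 2.17 CPM (replicate 6), and 2 of them were the lowest of all cows. Among first-parity cows, the 5 nonR cows lay at 2.43, 2.82, 2.95, 3.44 and 3.64 CPM. The 7 R cows of that parity ranged from 2.15 to 5.60 CPM (median 4.36), and its 2 lowest, at 2.15 and 2.41 CPM, were R replicates 22 and 23, whose libraries stood apart. In parity 3 the direction of the means was the opposite. The 3 R cows had 1.73, 2.75 and 3.73 CPM and the 3 nonR cows 2.03, 3.06 and 4.70 CPM.

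The 6 combinations of status and parity, ordered by their means, ran from nonR parity 2 (1.73 ± 0.390 CPM, SD, n = 3) through R parity 3 (2.74 ± 1.00, n = 3), nonR parity 1 (3.05 ± 0.488, n = 5), nonR parity 3 (3.26 ± 1.35, n = 3) and R parity 1 (4.05 ± 1.30, n = 7) to R parity 2 (6.59 ± 0.771, n = 2). The ranges of neighbours in the middle of this order overlapped. The highest combination was separate from its neighbour, with 6.04 CPM as its lowest and 5.60 CPM as its neighbour's highest value. At the low end, nonR parity 2 overlapped with R parity 3 between 1.73 and 2.17 CPM.

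Whether the difference between R and nonR cows itself differed between parities was tested in edgeR. With parity in 2 classes the interaction was 0.37 on the log2 scale (standard error 0.49, 95% interval -0.65 to 1.40). The quasi-likelihood test of edgeR gave it an unadjusted p of 0.459 and an adjusted p of 0.988. A fit with parity as 3 levels was added after the values by parity had been seen. In it the difference between R and nonR cows was larger in parity 2 than in parity 1 by 1.52 (standard error 0.51) and smaller in parity 3 than in parity 1, by -0.65 (standard error 0.48). The test of both terms together gave an unadjusted p of 0.00387 and an adjusted p of 0.986 over all genes by the quasi-likelihood test of edgeR. It called 0 of 14852 genes (0%), with 405 genes (2.73%) at an unadjusted p under 0.05. The fit with 2 classes called none either (0% by edgeR and 0% by DESeq2), with 443 genes (2.98%) at an unadjusted p under 0.05. The separation in parity 2 rests on 5 cows, 1 of which, nonR replicate 6, is a library that stood apart. These same values prompted the fit with 3 levels, so its unadjusted p is no independent evidence of an interaction. Both interactions also concern pregnancy status, for which the study chose CLECL1 on part of these cows, and that limit holds for both fits.

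**Figure D2:**
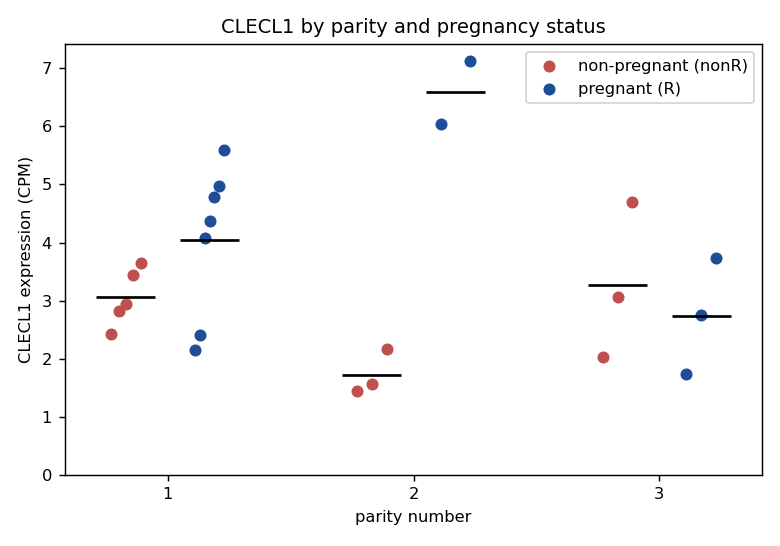
CLECL1 level (y axis, CPM) of each cow by parity number (x axis) and pregnancy status (red non-pregnant, blue pregnant), with black lines for the mean of each combination. In parity 2 the 2 pregnant cows lie at 6.04 and 7.13 CPM and the 3 non-pregnant cows at 1.44 to 2.17 CPM. The statuses overlap in parities 1 and 3, and the share of all genes that separate in parity 2 was not counted.

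No steady change of CLECL1 with the interval from calving was detectable. The slope was 0.02 on the log2 scale per 10 days (standard error 0.026, 95% interval -0.03 to 0.08), with pregnancy status in the model. The quasi-likelihood test of edgeR gave an unadjusted p of 0.387 and an adjusted p of 0.99994. At the upper end of the 95% interval, the change over the whole span of 128 to 274 days would exceed 0.59 on the log2 scale. That is the difference fitted between R and nonR cows, so a change of that size can be missed. Again 0 of 14852 genes passed (0%), 339 genes (2.28%) had an unadjusted p under 0.05, and DESeq2 called 0 genes (0%). Over the 23 cows, Pearson's r between vst values of CLECL1 and days was 0.176 (permutation p = 0.419, adjusted p = 0.494 over 3 measures) and Spearman's rho was 0.0445 (permutation p = 0.839, adjusted p = 0.839). The cow farthest from the median interval was R replicate 15 (274 days), and R replicate 7 and nonR replicate 14 tied for the next place (261 days). Without R replicate 15 and nonR replicate 14 r was -0.0733 (permutation p = 0.752), and without R replicates 15 and 7 it was -0.0888 (permutation p = 0.704). It was -0.255 without all 3 (permutation p = 0.279), so the sign of the pooled value rested on these cows. Within R cows r was 0.382 (n = 12, permutation p = 0.222) and within nonR cows -0.108 (n = 11, permutation p = 0.751). The nonR cows with intervals up to 167 days had 2.82 to 3.64 CPM and those between 180 and 238 days had 1.44 to 2.43 CPM, whereas the nonR cow at 261 days, replicate 14, had 4.70 CPM, the highest of its group. This grouping of intervals was made after the values were seen and was not tested. The cows between 180 and 238 days included all 3 nonR cows of parity 2 (replicates 19, 6 and 1, at 180, 187 and 212 days). They also included nonR replicates 4 and 6, whose libraries stood apart. Interval, parity and the state of the library cannot be told apart in these cows.

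**Figure D3:**
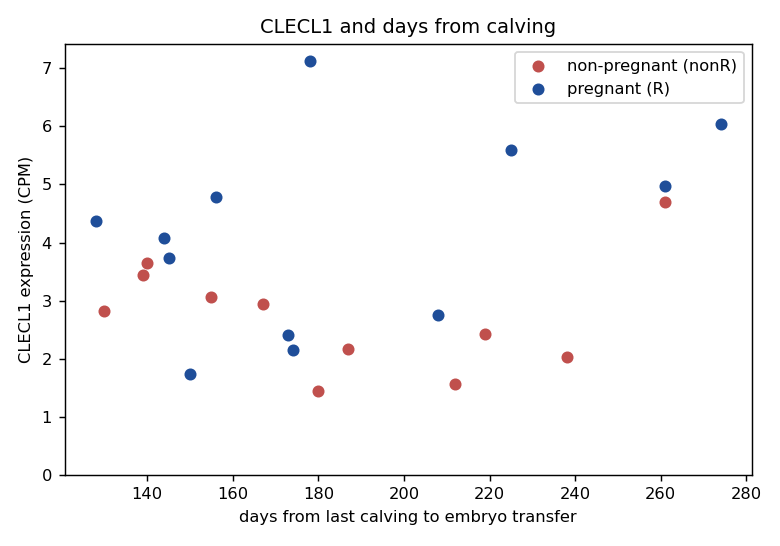
CLECL1 level (y axis, CPM) against days from the last calving to embryo transfer (x axis) for 12 pregnant (blue) and 11 non-pregnant (red) cows. The points show no steady rise or fall over 128 to 274 days (Spearman's rho 0.0445).

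The other 2 measures describe the libraries, and no relation of either to CLECL1 passed its test. With the share of reads outside genes, r was -0.152 (permutation p = 0.494, adjusted p = 0.494) and rho was -0.143 (permutation p = 0.513, adjusted p = 0.839). Without the 2 libraries farthest from the median share, r was -0.167. With the log10 of the counts in genes, r was 0.162 (permutation p = 0.467, adjusted p = 0.494) and rho was 0.0968 (permutation p = 0.66, adjusted p = 0.839), and r was 0.115 without the 2 libraries farthest from the median. Within R cows the correlation with the share of reads outside genes was -0.494 (n = 12, permutation p = 0.104), and within nonR cows it was -0.273 (n = 11, permutation p = 0.421). For the counts in genes, r was 0.407 within R cows (n = 12, permutation p = 0.19) and 0.479 within nonR cows (n = 11, permutation p = 0.135).

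Across cows, many other genes rose and fell together with CLECL1. Spearman's correlations of the vst values over 23 cows are given as a description, since the same libraries, their depth and their cell mixture enter every gene. Over the other 14851 genes tested the median rho was -0.0059, and 5.57% of genes had a rho over 0.5 and 3.69% a rho under -0.5. The 20 genes nearest to CLECL1 had a rho from 0.798 to 0.885, and the 20 most opposed genes from -0.854 to -0.742. Nearest of all was ENSBTAG00000000588 (rho 0.885). It was at 0.161, 57.7 and 101.9 CPM (lowest, median, highest) in R cows and at 7.85, 33.3 and 52.9 CPM in nonR cows. Its highest value came from R replicate 10, the cow with most CLECL1, and its lowest from R replicate 22, whose library stood apart. The gene with the next closest pattern was ENSBTAG00000017863 (rho 0.854), at 28.4 to 89.8 CPM in R cows and 31.7 to 69.7 CPM in nonR cows. The most opposed genes were ENSBTAG00000005754 (rho -0.854) and ENSBTAG00000020121 (rho -0.850). The former was at 79.4 to 475.2 CPM in R cows and 101.7 to 210.8 CPM in nonR cows, with its highest value again in R replicate 22. The latter had its lowest value, 19.6 CPM, in R replicate 15 and its highest, 46.0 CPM, in R replicate 22.

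The ranking of single genes depended on the cows. Without the 4 libraries apart, 8 of the 20 nearest genes were still among the 20 nearest, and 4 without all 6 libraries. With the group means removed the number was 7, in R cows alone 1 and in nonR cows alone 2. Of the 20 most opposed genes, 5 were still among the 20 most opposed without the 4 libraries, 0 without the 6 and 9 with the group means removed. Both sets were chosen for their rho over these same cows, so their values in part of the cows are a description and no sign of stability. The 20 nearest genes had a rho of at least 0.674 without the 6 libraries, from 0.580 to 0.853 within R cows and from 0.464 to 0.864 within nonR cows. The 20 most opposed genes were at or under -0.615 within R cows and at or under -0.418 within nonR cows. Correlations within a group rest on 12 and 11 cows, and 9.66% of all genes had a rho over 0.5 and 9.29% under -0.5 within R cows, and 4.75% and 4.95% within nonR cows. Of the 20 nearest genes 0 passed the test for parity class and 0 that for days from calving, where 0% of all genes did. All 20 were higher in R than in nonR cows on average, with a median log2 difference of 0.56 against 0.03 over all genes tested, and this direction is no test, since they were chosen for their likeness to a gene that was itself chosen on this contrast.

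**Figure D4:**
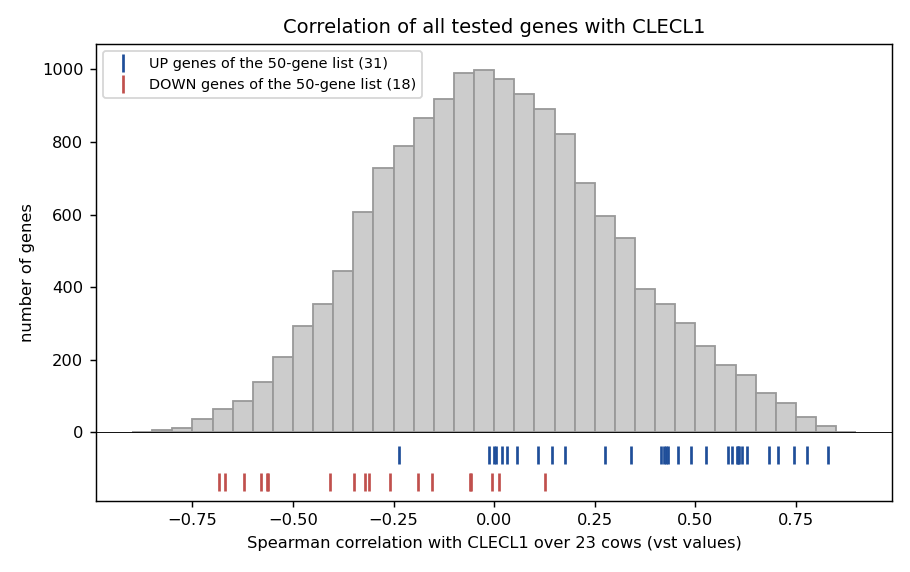
Number of genes (y axis) by Spearman correlation with CLECL1 over 23 cows (x axis, vst values) for 14851 genes, with ticks under the axis for the other UP genes (blue, 31) and the DOWN genes (red, 18) of the study's list of 50. The median is 0.433 for the UP ticks, -0.316 for the DOWN ticks and -0.0059 for all genes.

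Among the study's own genes, those listed as UP mostly followed CLECL1 and those listed as DOWN mostly opposed it. The median rho with CLECL1 was 0.433 over the other 31 UP genes and -0.316 over the 18 DOWN genes. Of the UP genes 13 (41.9%) had a rho over 0.5 and 0 under -0.5, and of the DOWN genes 0 had a rho over 0.5 and 6 (33.3%) under -0.5. Over all genes the shares were 5.57% over 0.5 and 3.69% under -0.5. The study chose these genes together on pregnancy status in part of these cows and in other cattle. This order is therefore not independent evidence of a link between them. With the group means removed, so that a shared difference between R and nonR cows no longer counts, the medians were 0.414 and -0.262, against 0 over all genes. Within R cows they were 0.406 and -0.350, and within nonR cows 0.255 and -0.159. Without the 6 libraries they were 0.429 and -0.436. Not every listed gene kept its direction. With the group means removed, 8 of the 31 UP genes had a negative rho and 4 of the 18 DOWN genes a positive one. With the group means kept, these numbers were 2 and 2.

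COL26A1, which encodes a collagen of the extracellular matrix, lay closest to CLECL1 among the listed genes (rho 0.829, rank 7 of 14851 genes). It was at 1.40, 25.4 and 46.6 CPM (lowest, median, highest) in R cows and at 0.986, 14.5 and 32.1 CPM in nonR cows. In the 4 libraries apart COL26A1 fell to 0.986 to 2.18 CPM, a range shared by 1 other cow, nonR replicate 19 with 1.07 CPM, which also had the least CLECL1. Its rho with CLECL1 was 0.818 without these 4 libraries, and 0.797 within R and 0.491 within nonR cows. EBF4, a transcription factor of the early B-cell factor family, had a rho of 0.778 (rank 30). Its level was 1.35, 11.7 and 16.9 CPM in R cows and 3.70, 8.59 and 14.4 CPM in nonR cows. EBF4 followed CLECL1 within both groups (rho 0.825 in R and 0.664 in nonR cows), and its rho was 0.868 without the 6 libraries. In nonR replicate 14, the nonR cow with most CLECL1, EBF4 also had its highest nonR value.

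SCG5, which encodes a chaperone of a prohormone convertase in secretory granules, had a rho of 0.744 (rank 69). Its level was 5.01, 23.6 and 37.2 CPM in R cows and 6.48, 17.8 and 24.8 CPM in nonR cows. The highest SCG5 value belonged to R replicate 11, where CLECL1 was at 2.75 CPM, and the rho was 0.580 within R cows and 0.782 within nonR cows. RARRES1, a membrane protein induced by retinoic acid that was added after its value was seen, had a rho of 0.705 (rank 131), with 0.671 within R cows and 0.191 within nonR cows. The difference between the groups was not tested. In nonR replicate 4, one of the libraries apart, RARRES1 was at 408.6 CPM with CLECL1 at 2.43 CPM. Some UP genes had a rho near 0 with CLECL1. Among them was PAXIP1 (0.0040), a cofactor of histone methylation and DNA repair that was singled out after its value was seen. RIN3, an exchange factor for Rab proteins on endosomes, was likewise singled out and had a rho of 0.458, which was 0.238 with the group means removed.

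**Figure D5:**
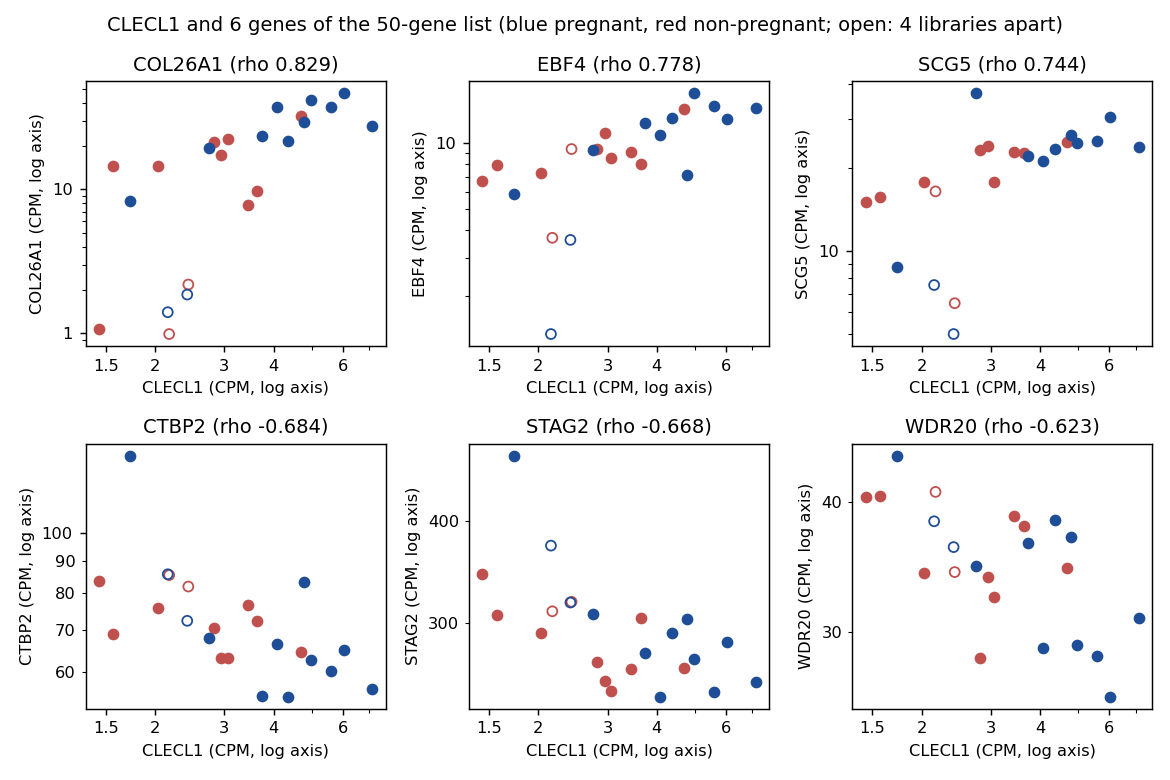
Levels of 6 genes of the study's list (y axes, CPM, log scale) against CLECL1 (x axes, CPM, log scale) in 23 cows, blue for pregnant, red for non-pregnant and open circles for the 4 libraries apart. COL26A1, EBF4 and SCG5 rise with CLECL1 (rho 0.829, 0.778 and 0.744), and CTBP2, STAG2 and WDR20 fall (rho -0.684, -0.668 and -0.623).

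The genes of the list most opposed to CLECL1 were CTBP2, STAG2 and WDR20. CTBP2, a transcriptional corepressor, had a rho of -0.684. It was at 54.8, 65.7 and 132.5 CPM in R cows and at 63.2, 72.4 and 85.6 CPM in nonR cows. The highest CTBP2 value came from R replicate 21, the library with fewest CLECL1 reads and most reads outside genes, and without R replicates 20 and 21 the rho was -0.758. STAG2, a subunit of the cohesin complex that holds sister chromatids together, had a rho of -0.668 and was at 243.9 to 480.0 CPM in R cows and 247.8 to 344.4 CPM in nonR cows. Its highest value also came from R replicate 21. The rho of STAG2 was -0.505 without the 6 libraries, -0.762 within R cows and -0.573 within nonR cows. WDR20, a cofactor of deubiquitinating enzymes, had a rho of -0.623 and was at 26.0 to 44.3 CPM in R cows and 28.3 to 40.9 CPM in nonR cows. The lowest WDR20 value belonged to R replicate 15 and the highest to R replicate 21, cows near opposite ends of the CLECL1 range. STAG2 is listed as DOWN, yet its average difference between R and nonR cows was not negative here (log2 difference 0.08, standard error 0.10). This difference was smaller than its error. The only R cows above the highest nonR cow (344.4 CPM) were replicate 21 (480.0 CPM) and replicate 22 (372.9 CPM), whose library stood apart. The difference of STAG2 without these cows was not examined. The rho of STAG2 with CLECL1 was -0.715 with the group means removed.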

How the data were processed

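Endometrial RNA of 23 cows was sequenced from stranded total RNA libraries (Illumina TruSeq, per the labels). The deposited values are read counts per Ensembl gene. The submitters' processing notes name STAR, HTSeq and the build UMD3.1 without saying what each was used for, and the files end with the summary lines that HTSeq writes. Those lines stayed out of library sizes and tests. Reads outside genes made up 39.2 to 76.7% of the reads in genes, outside genes or ambiguous between genes. The sources used here give no versions, annotation release or strand setting, so antisense reads cannot be told apart. Groups follow the labels' pregnancy status, and a cow's replicate number comes from its title and pairs no cows. The study used 8 R and 9 nonR of these cows beside cattle of other data sets. These 8 and 9 are not tied to the labels, so all cows were used.

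Counts were filtered (14852 of 24616 genes), scaled by TMM and tested with the quasi-likelihood test of edgeR 4.0.16 in R 4.3.3, with Benjamini-Hochberg adjustment over all genes, and again with DESeq2 1.42.0. P-values rest on the spread between cows, which with 1 library per cow also holds that of biopsies and library preparation. Correlations used DESeq2's vst, and permutation tests used 100000 resamples, two-sided. No library was a repeat of another of its group: chi-square divided by its degrees of freedom was at least 32.4 in the 121 pairs. The scripts were tested on simulated data. Named genes are the 2 nearest and 2 most opposed of all genes, by identifier, and the listed genes with the 3 highest and 3 lowest correlations. CLECL1, the lists and the tests were chosen with earlier results of these data known. Lists of marker and pathway genes given by symbol could not be used, since no table paired identifiers with symbols. CLECL1 sequences were not used here. Alternatives covered scaling, low-count filters, test, covariates, correlation measure and left-out libraries.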

Additional observations from a re-analysis of the deposited data

How the results depend on the processing

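No paired analysis was possible, since each cow had 1 library and 1 later outcome and the labels pair no cows. No CLECL1 result on parity class, days from calving or the interaction of parity with pregnancy status passed its test under any alternative, and the difference of CLECL1 between R and nonR cows kept its sign in all 31. The direction turned for parity class without R replicates 20 and 21 (0.0059), for the interaction in parity 3 against parity 1 (-0.65, with 1.52 for parity 2, both added after the data were seen), and for r with days without the 2 farthest cows (-0.0733, or -0.0888 with the other choice in a tie and -0.255 without all 3, both added after the data were seen) and in nonR cows alone (-0.108). With each cow left out in turn, the log2 values ranged from -0.23 to -0.01 for parity class, 0.11 to 0.66 for the interaction and 0.0029 to 0.03 per 10 days, all without a call. The count of genes called for pregnancy status was 10 with DESeq2 and 1 without R replicate 8, against 0, and the counts for parity, days and interaction stayed at 0. Of the 20 nearest genes, 10 were shared with Pearson's correlation, 7 with group means removed, 8 without the 4 libraries apart, 4 without the 6, 1 in R cows alone and 2 in nonR cows alone, the last pair added after the data were seen. With single cows left out 11 to 18 were shared, fewest without R replicate 15 (11) and R replicate 20 (13). The causes were not tested. The test for parity class had 12 and 11 cows, a standard error of 0.24 on the log2 scale and adjustment over all genes. It can miss more than small differences of CLECL1, also one of the size fitted between R and nonR cows (0.59).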
